A study of Mus musculus with 11 samples.

Results

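The BCL-2 family genes described here are 10 genes listed by name for their function: the anti-apoptotic Bcl2, Bcl2l1, Bcl2l2 and Mcl1, the effectors Bax and Bak1, and the BH3-only genes Bid, Bad, Bik and Bmf. They were taken by gene symbol from a table of 22243 genes, and all 10 were found, as 12 transcripts. The tissue was full-thickness distal colon of 5 mice homozygous for loss of Nrg4 (Nrg4-/-, called KO) and 6 wild-type mice (WT), all adults of 11 to 12 weeks, housed together from 9 weeks of age. The product of Nrg4, neuregulin-4, binds the receptor ErbB4 as a growth factor of the EGF family. Genotypes were mixed in 3 cages, with 2 KO and 2 WT mice each in cages A and B, while cage C held 1 KO mouse and 2 WT mice. Both sexes were used, but the labels give no sex for a single mouse, and they name neither a strain, a Cre driver nor how the allele was made. Polyadenylated RNA was read as 75 nt single-end reads, and levels are in TPM, a share of all transcripts in a library that is scaled for transcript length.

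Proteins of the BCL-2 family decide whether the outer mitochondrial membrane is breached during apoptosis. Bax and Bak form the pores through which cytochrome c leaves, Bcl-2, Bcl-xL, Bcl-w and Mcl-1 hold them in check, and BH3-only proteins bind the guardians or the effectors through a short helix called the BH3 domain. In colon, where surface cells are continually shed and replaced, Mcl-1 and Bcl-xL are known as survival factors of the epithelium, and signals of ErbB receptors are known to favour cell survival. Much of the control of this family lies in protein stability, phosphorylation and cleavage, which RNA does not record.

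A stretch found in each of the members is shown first: the coding sequence of the BH3 domain core in the principal transcript of each gene (GENCODE M21, mm10). Each line gives 48 bases of coding sequence, 5′ to 3′, and the capitals mark the 6 codons of the pattern searched for: leucine, 3 free positions, a small residue (glycine, alanine or serine) and aspartate, with methionine allowed first where no leucine gave a match.
Bcl2: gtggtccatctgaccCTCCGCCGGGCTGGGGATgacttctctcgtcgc
Bcl2l1: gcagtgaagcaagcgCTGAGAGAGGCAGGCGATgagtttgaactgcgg
Bcl2l2: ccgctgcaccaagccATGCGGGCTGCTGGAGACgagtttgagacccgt
Mcl1: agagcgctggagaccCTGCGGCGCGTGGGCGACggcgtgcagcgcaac
Bax: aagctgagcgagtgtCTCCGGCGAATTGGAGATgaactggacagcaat
Bak1: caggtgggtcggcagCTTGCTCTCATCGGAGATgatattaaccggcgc
Bid: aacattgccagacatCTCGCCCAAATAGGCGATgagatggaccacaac
Bad: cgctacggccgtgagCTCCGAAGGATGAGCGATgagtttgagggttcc
Bik: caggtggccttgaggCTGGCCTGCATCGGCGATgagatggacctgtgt
Bmf: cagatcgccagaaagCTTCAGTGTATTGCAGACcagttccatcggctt
The first capital codon encodes leucine in 9 of the 10 genes and methionine in Bcl2l2. The codon before the aspartate encodes glycine in 8 genes, serine in Bad and alanine in Bmf. The pattern was found 1 time in each translated coding sequence; a match is a description of the letters and no test.

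The members lie on chromosomes other than chromosome 9, which carries Nrg4 (55220222 to 55326844, mm10). Bcl2 spans 106538178 to 106714274 on chromosome 1, Bcl2l1 152780668 to 152831728 on chromosome 2, Bcl2l2 54883377 to 54888234 on chromosome 14 and Mcl1 95658788 to 95663176 on chromosome 3. Bax spans 45461697 to 45466898 on chromosome 7 and Bak1 27019810 to 27029009 on chromosome 17. Bid spans 120891930 to 120916853 on chromosome 6, Bad 6941861 to 6951899 on chromosome 19, Bik 83526862 to 83544634 on chromosome 15 and Bmf 118528757 to 118549687 on chromosome 2.

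Nrg4 itself was listed at 0 TPM in all 11 mice, so its level could not check the genotype labels. Erbb4, the gene of its receptor, was listed at 0 TPM in 7 mice and at no more than 0.00907 TPM in the others. Epithelial markers were abundant in each mouse: 12 of 12 were tested, and they summed to 8802 to 12349 TPM in KO and 8287 to 14127 TPM in WT. Of 8 smooth muscle markers 7 were tested (summed 2643 to 4665 TPM in KO and 2812 to 5259 TPM in WT). Of 13 markers of B and T lymphocytes 4 were tested. The sum of all 13 was uneven, at 5.97 to 165 TPM in KO, with the highest value in KO-1, and 2.94 to 60.8 TPM in WT. Mitochondrially encoded genes took 19.0% to 42.9% of the listed TPM in KO, with the highest share in KO-3, and 19.1% to 31.4% in WT. Y-linked transcripts summed to 32.4 to 41.7 TPM in cage A and to at most 0.236 TPM in cages B and C, so sex and any other property of cage A cannot be told apart. The read number behind a TPM value is unknown.

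The family was dominated by Mcl1 and Bax in KO and WT colon alike. Over all mice Mcl1 averaged 176 ± 43.8 TPM and Bax 56.0 ± 6.20 TPM (SD, n = 11). Bcl2l1 followed at 18.3 ± 1.99 TPM, Bak1 at 16.1 ± 3.64 TPM and Bcl2l2 at 14.2 ± 0.941 TPM. The lowest levels were those of Bik at 6.82 ± 2.10 TPM, Bad at 4.88 ± 0.815 TPM, Bid at 4.14 ± 1.75 TPM, Bcl2 at 2.42 ± 0.483 TPM and Bmf at 1.86 ± 0.644 TPM. Mcl1 exceeded Bax, Bax exceeded Bcl2l1, and Bcl2l2 exceeded Bik in 11 of 11 mice. The order was less firm among the neighbours in between: Bcl2l1 exceeded Bak1 in 8 mice, Bak1 exceeded Bcl2l2 in 9, Bik exceeded Bad in 8, Bad exceeded Bid in 7, Bid exceeded Bcl2 in 9 and Bcl2 exceeded Bmf in 10. For these pairs of neighbours the means differed by less than the sum of their SDs. Bcl2, the founding member of the family, was the least abundant of the anti-apoptotic genes among the members.

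**Figure D1:**
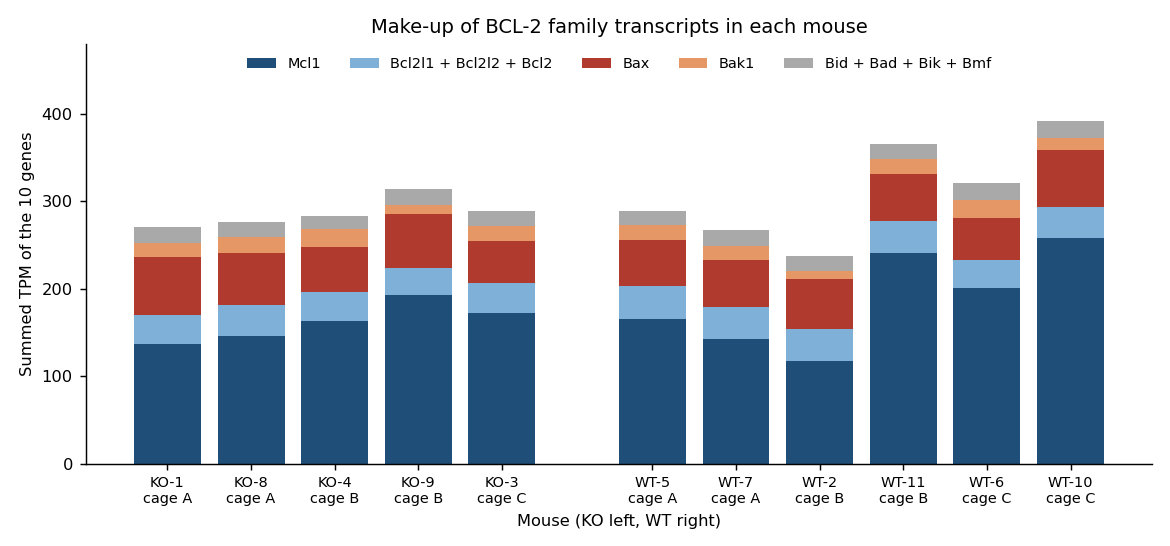
Stacked bars give the summed TPM of the 10 genes in each mouse, with blocks for Mcl1, the other anti-apoptotic genes, Bax, Bak1 and the BH3-only genes, KO left and WT right, with the cage under each name. The sum lay between 271 and 314 TPM in KO and between 238 and 392 TPM in WT, and Mcl1 is the largest block in each of the 11 bars.

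Summed by role over the 10 members alone, anti-apoptotic transcripts were more abundant than effector transcripts in each mouse. Other BCL-2 family genes were left out of these sums, among them Bok and the BH3-only gene Pmaip1. Bok, named here after its value was seen, averaged 17.5 TPM over all mice, against 16.1 TPM for the effector Bak1. The mean of Pmaip1, 24.1 TPM over all mice, exceeded that of the BH3-only sum, 17.7 TPM. The anti-apoptotic sum was 196 ± 21.2 TPM in KO (SD, n = 5) and 223 ± 55.0 TPM in WT (SD, n = 6). The effector sum was 73.6 ± 6.69 TPM in KO and 70.9 ± 4.31 TPM in WT, and the BH3-only sum 17.2 ± 1.31 TPM in KO and 18.1 ± 1.51 TPM in WT. The ratio of the anti-apoptotic to the effector sum ran from 2.07 to 3.20 in KO and from 2.30 to 3.86 in WT, so the ranges overlapped over most of their length. The ratio of Bax to Bcl2 was 23.0 ± 5.27 in KO and 25.2 ± 7.98 in WT, with its lowest value of 14.0 in KO-3 and its highest of 40.1 in WT-10. Mcl1 made up 82.5 ± 2.33% of the anti-apoptotic sum in KO and 83.1 ± 4.73% in WT.

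The main question was whether any of these survival and death genes differed between KO and WT colon. None was called: with limma on log2(TPM + 0.5), cage as a term and Benjamini-Hochberg adjustment over 10756 genes, 0 of the 10 passed a false discovery rate (FDR) of 0.05, and 0 had an unadjusted p below 0.05. Over all genes tested, 0.0372% passed the FDR and 3.10% had an unadjusted p below 0.05. All 10 members passed the filter on low values (1 TPM or more in 5 or more mice). The adjusted p was 1.00 for each member, and in 10 of 10 the KO and WT values overlapped, where 0.223% of all genes tested had groups without overlap. In the authors' deposited table the 12 transcripts of these genes likewise had a q-value of 1, and the smallest p-value was 0.0740, for Bid. In log2 fold change (KO against WT, given below ± standard error) 6 members were positive and 4 negative, with a median of 0.025; over all genes 53.2% were negative, with a median of -0.011. An unadjusted p below 0.05 with a lower level in KO was seen for 2.04% of all genes, and with a higher level in KO for 1.06%, against 0 members in either direction.

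**Figure D2:**
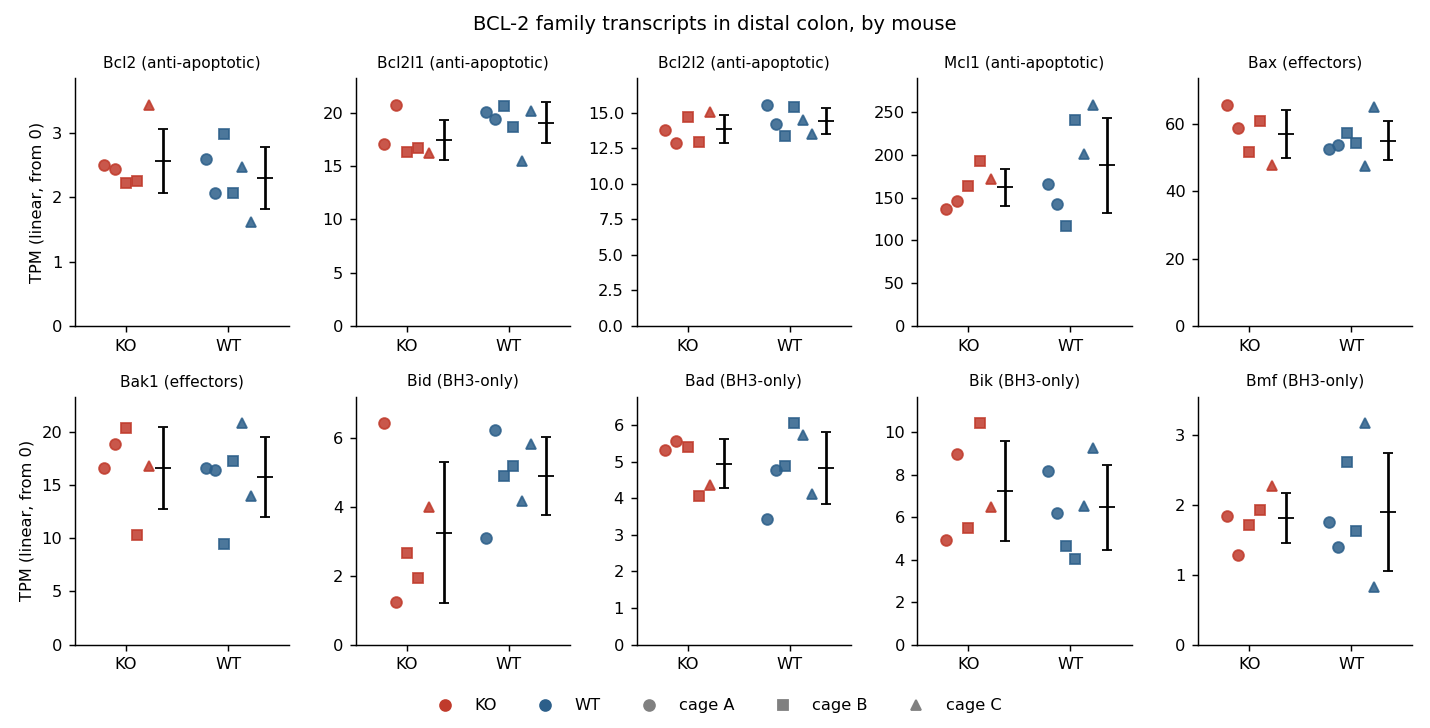
Each panel gives the TPM of 1 gene in each mouse, KO left and WT right, with symbols for the cage and the mean with its SD beside each group. KO and WT points overlap in each panel, and Bid has 4 of its 5 KO points below the WT median.

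Among the anti-apoptotic genes, Mcl1, which encodes a short-lived guardian protein that must be made continually, had 137, 145, 163, 192 and 172 TPM in KO-1, KO-8, KO-4, KO-9 and KO-3, against a lowest value of 117, a median of 183 and a highest of 258 TPM in WT. The KO mice lay inside the WT range, which was the wider. The log2 fold change was -0.12 ± 0.18, with a 95% interval of -0.51 to 0.27, or 0.702-fold to 1.21-fold.

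Bcl2l1 encodes Bcl-xL, a guardian of epithelial and many other cells. It had 17.1, 20.7, 16.3, 16.7 and 16.2 TPM in KO-1, KO-8, KO-4, KO-9 and KO-3, against a lowest value of 15.4, a median of 19.7 and a highest of 20.6 TPM in WT. Of the KO mice 4 were below the WT median, and KO-8 was above the highest WT mouse. The log2 fold change was -0.15 ± 0.10 (interval -0.36 to 0.07), negative in each of the 3 cages. Its 2 listed transcripts start 1062 bases apart and have an identical coding sequence. The upstream one (ENSMUST00000007803) carried 92.5 ± 2.73% of the gene's TPM in KO and 90.5 ± 4.91% in WT, with the lowest share of 82.3% in WT-11.

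Bcl2l2, which encodes Bcl-w, was the steadiest member. It had 13.8, 12.9, 14.7, 12.9 and 15.0 TPM in KO-1, KO-8, KO-4, KO-9 and KO-3, against a lowest value of 13.4, a median of 14.3 and a highest of 15.5 TPM in WT. KO-8 and KO-9 were just below the lowest WT mouse and the other KO mice lay among the WT mice; the highest mouse was 1.21 times the lowest over all 11. Its residual SD on the log2 scale was 0.105, at the 4.67th percentile of all genes tested, and the interval of its log2 fold change (-0.05 ± 0.09) ran from -0.24 to 0.14. The gene overlaps Gm20521, a model on the same strand that runs on through Pabpn1 and was listed at 0 in 6 mice and at no more than 1.40 TPM in the others, so reads of the shared exons could be split between both.

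Bcl2, the guardian first found in lymphoma, had 2.50, 2.43, 2.22, 2.25 and 3.43 TPM in KO-1, KO-8, KO-4, KO-9 and KO-3, against a lowest value of 1.62, a median of 2.26 and a highest of 2.98 TPM in WT. KO-3 stood above all other mice, and the other KO mice were inside the WT range. KO-3 also had the highest share of mitochondrially encoded transcripts (42.9%), whose part in its Bcl2 level was not tested. The log2 fold change was 0.14 ± 0.18 (interval -0.25 to 0.53), and without KO-3 it was -0.0270.

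Neither effector was called between the genotypes. Bax had 65.7, 58.9, 51.8, 61.0 and 47.9 TPM in KO-1, KO-8, KO-4, KO-9 and KO-3, against a lowest value of 47.4, a median of 54.2 and a highest of 65.0 TPM in WT. Both groups covered nearly the same range, and the log2 fold change of 0.03 ± 0.11 had an interval of 0.868-fold to 1.21-fold. Bak1 had 16.6, 18.9, 20.3, 10.3 and 16.8 TPM in the same KO mice, against a lowest value of 9.43, a median of 16.5 and a highest of 20.8 TPM in WT. Each group held 1 low mouse, KO-9 and WT-2, both of cage B. The log2 fold change of Bak1 was 0.10 ± 0.20 (interval -0.35 to 0.55).

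Of the BH3-only genes, Bid had the largest estimated difference in the family and the widest interval. Its product links death receptors to the mitochondrial pathway after cleavage by caspase-8. Bid had 6.41, 1.23, 2.65, 1.93 and 3.99 TPM in KO-1, KO-8, KO-4, KO-9 and KO-3, against 3.09 and 6.23 TPM in WT-5 and WT-7 of cage A, 4.89 and 5.18 TPM in WT-2 and WT-11 of cage B, and 4.17 and 5.80 TPM in WT-6 and WT-10 of cage C. Of the KO mice 3 were below the lowest WT mouse, while KO-1 was the highest of all 11. The log2 fold change was -0.63 ± 0.34 with an unadjusted p of 0.0909 (limma FDR 1.00), and its interval ran from -1.39 to 0.12, or 0.382-fold to 1.09-fold.

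The log2 difference of Bid had the same sign in each cage, at -0.51 (cage A), -0.998 (cage B) and -0.27 (cage C), the last resting on 1 KO mouse. Over the 11 mice Bid varied more than any other member, with a coefficient of variation of 42.3%, and its residual SD was at the 89.4th percentile of all genes tested. The coefficient was 63.1% within KO and 23.3% within WT. KO-1 also had the highest sum of lymphocyte markers, 165 TPM against 2.94 to 60.8 TPM in the other mice. Over the 11 mice Bid and this sum had Pearson's r of 0.54 (permutation p = 0.0858, adjusted p = 0.715). The part of these markers in the Bid value of KO-1 itself was not tested. Without KO-1 the log2 fold change of Bid was -0.94 (limma FDR 1.00), and with each mouse left out in turn it lay between -0.94 and -0.37.

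Bik, which encodes a BH3-only protein of the endoplasmic reticulum, had 4.91, 8.98, 5.47, 10.4 and 6.47 TPM in KO-1, KO-8, KO-4, KO-9 and KO-3, against a lowest value of 4.04, a median of 6.35 and a highest of 9.25 TPM in WT. KO-9 exceeded all WT mice and the rest lay among them, for a log2 fold change of 0.18 ± 0.24 (interval -0.36 to 0.73). In cage B the KO mean was 7.94 TPM and the WT mean 4.33 TPM, while in cages A and C the KO means, 6.94 and 6.47 TPM, were below the WT means, 7.17 and 7.88 TPM. Bik also has 2 listed transcripts with an identical coding sequence, and their starts lie 10 bases apart. ENSMUST00000016902 carried 89.0 ± 8.74% of the TPM in KO and 85.5 ± 13.2% in WT.

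Bad encodes a BH3-only protein that growth factor signals silence by phosphorylation. It had 5.32, 5.57, 5.39, 4.07 and 4.37 TPM in KO-1, KO-8, KO-4, KO-9 and KO-3, against a lowest value of 3.43, a median of 4.83 and a highest of 6.04 TPM in WT. All KO mice were within the WT range (log2 fold change 0.04 ± 0.16, interval -0.32 to 0.40). Bmf, a BH3-only gene linked to loss of cell attachment, had 1.84, 1.28, 1.72, 1.92 and 2.27 TPM in the same KO mice, against a lowest value of 0.828, a median of 1.69 and a highest of 3.17 TPM in WT. The KO values were again inside the WT range, and the log2 fold change was 0.02 ± 0.26 (interval -0.57 to 0.60).

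**Figure D3:**
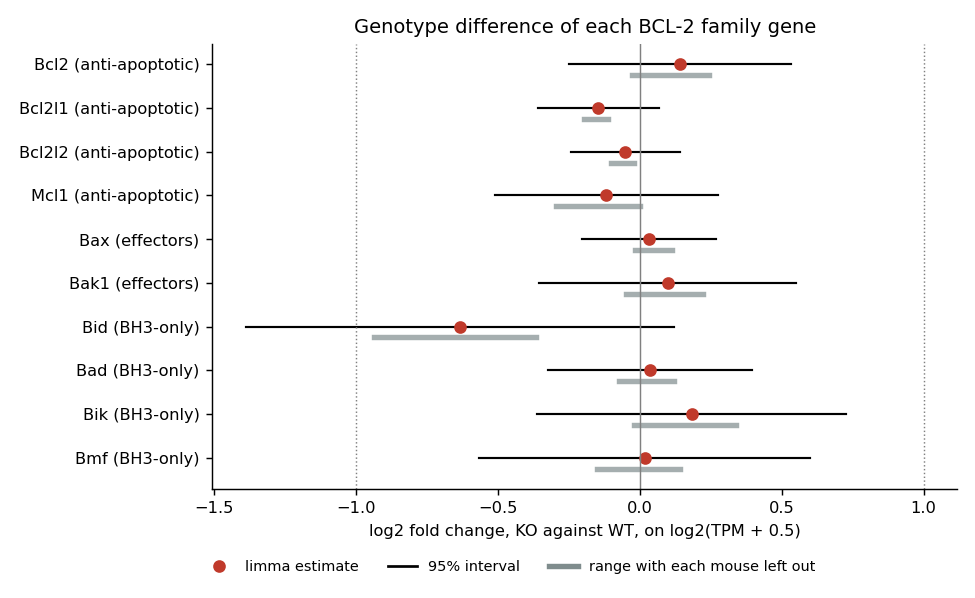
Points give the limma log2 fold change of each gene (KO against WT), black lines the 95% interval and grey lines the range with each mouse left out in turn; dotted lines mark 2-fold. The interval includes 0 for the 10 genes and passes the 2-fold line for Bid alone.

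The intervals bound what these mice could show. For 9 of the 10 members the 95% interval lay within 2-fold in either direction, Bid being the exception; over all genes tested this held for 88.3%. A p that missed the threshold does not show equal levels, and for Bid a fall to 0.382-fold and a rise to 1.09-fold both lay in the interval. Of the members, 2 had the same sign in the 3 cages, Bcl2l1 and Bid, both negative. The share of all genes with the same sign in the 3 cages was not counted. The count of 2 members is therefore a description only. The interaction of genotype with cage was called for 0 of the 10 (limma F test, FDR 1.00 for each), and the smallest unadjusted p was 0.213, for Bik; over all genes 0.0186% were called and 3.97% had an unadjusted p below 0.05.

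Cages were compared next, as cage A against the mean of cages B and C. Of the members 0 of 10 were called, 0 had an unadjusted p below 0.05 and 0 had groups without overlap, where 0.0465%, 17.4% and 4.04% of all genes did. The largest difference was that of Mcl1, which averaged 148 ± 12.4 TPM over the 4 mice of cage A and 192 ± 47.8 TPM over the 7 other mice (± SD), a log2 difference of -0.35 ± 0.18 (limma FDR 0.342, unadjusted p 0.0828). Bcl2l1 stood at 19.3 ± 1.58 TPM in cage A and 17.7 ± 2.07 TPM in the others (limma FDR 0.475). Bcl2 was at 2.40 ± 0.230 TPM in cage A and 2.43 ± 0.602 TPM in the others (limma FDR 0.984).

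How the members vary with each other and with tissue composition was then described across the mice. Of 45 pairs of members, 0 passed adjustment and 3 had an unadjusted permutation p below 0.05. The closest pair was Bcl2 and Bmf, with Pearson's r of 0.72 (permutation p = 0.0148, adjusted p = 0.518) and Spearman's rho of 0.73 (permutation p = 0.0140, adjusted p = 0.554), and r was 0.54 without KO-3 and WT-10. Bcl2l2 and Bax had r of -0.67 (permutation p = 0.0270, adjusted p = 0.518) and rho of -0.65 (permutation p = 0.0366, adjusted p = 0.554).

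Bcl2 was lower in the mice with more epithelial transcripts. In 100 relations of the 10 members with 10 marker sums, a comparison added after the values were seen, 1 passed adjustment: Bcl2 with the sum of 12 epithelial markers had Pearson's r of -0.91 (permutation p = 0.00018, adjusted p = 0.0180) and Spearman's rho of -0.85 (permutation p = 0.00146, adjusted p = 0.146, which did not pass). Both quantities are shares of the same library. The relation was -0.84 without WT-10 and WT-2, the mice farthest from the median of the marker sum, and -0.94 within the 7 mice of cages B and C. Over the 4 mice of cage A, too few for a test, it was -0.72. WT-10, highest in epithelial markers at 14127 TPM, was lowest in Bcl2 at 1.62 TPM. KO-3, at 8802 TPM, was highest in Bcl2 at 3.43 TPM. Of the 12 markers 10 had a negative r with Bcl2, from -0.79 for the keratin gene Krt19 to -0.29 for Car4. The carbonic anhydrase gene Car1 was at -0.75. Cdh1 and Cdx2 had a positive r, at 0.31 and 0.21. Fewer cells of a type and less RNA per cell cannot be told apart in whole tissue. The adjusted p was above 0.05 without KO-3 (0.0550), WT-2 (0.0910), WT-5 (0.0530), WT-10 (0.149) or WT-11 (0.0860), with r between -0.93 and -0.86 over the 11 fits, and under other scales of the values (0.0640 with median-of-ratios factors and 0.154 relative to nuclear transcripts).

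Mcl1 had the opposite sign. Its r with the epithelial sum was 0.79 (permutation p = 0.00385, adjusted p = 0.192) and its rho 0.76 (permutation p = 0.00857, adjusted p = 0.428), which did not pass. Without WT-10 and WT-2 r was 0.52, and within cages B and C it was 0.87. Over the 4 mice of cage A its sign was the opposite, at -0.50, again too few for a test. The single markers were uneven: of the 12, 10 had a positive r with Mcl1, from 0.84 for Slc26a3 to 0.03 for Muc2. Krt8, the most abundant marker, was at 0.31. Cdh1 and Cdx2 had a negative r with Mcl1, at -0.20 and -0.50. The epithelial sum itself overlapped between genotypes, at 10660 ± 1323 TPM in KO and 11122 ± 2035 TPM in WT.

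**Figure D4:**
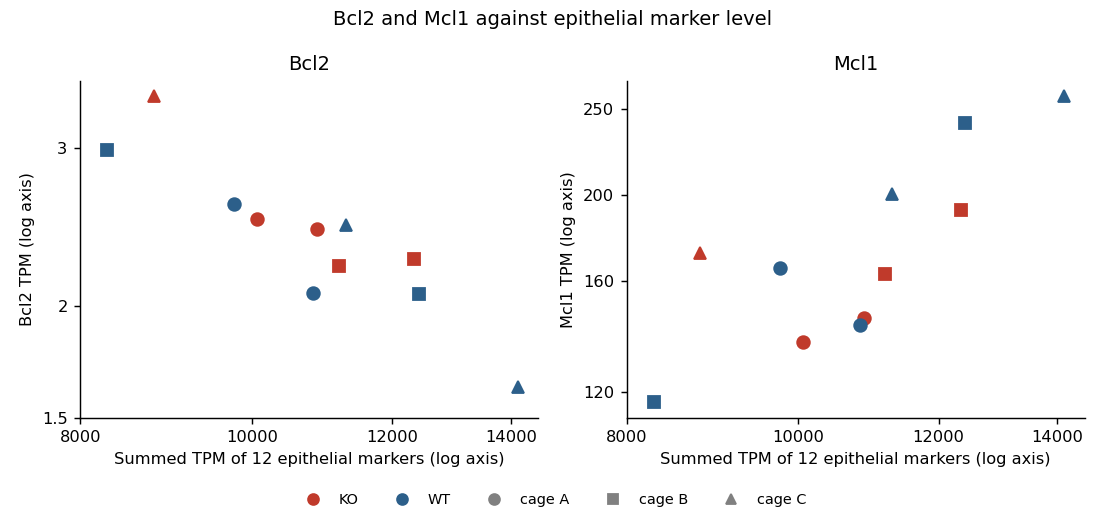
TPM of Bcl2 (left) and Mcl1 (right) against the summed TPM of 12 epithelial markers, 1 point a mouse, with colours for genotype and symbols for cage, on log axes. Bcl2 falls to 1.62 TPM in WT-10, the mouse with the most epithelial transcripts, and KO and WT points are interspersed.

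For each member the gene outside the lists with the most similar course over the 11 mice was also sought among 6406 genes of at least 5 TPM. These are the highest values out of that many, so they carry no p. Vps52, of the Golgi-associated retrograde transport complex, was closest to Bid (Pearson's r 0.94), Slc17a9, a nucleotide transporter, to Bax (0.92), and Tm9sf1 to Bcl2l2 (0.91). Htr4, a serotonin receptor, was closest to Bcl2 (0.91), Cdc42, a small GTPase, to Bak1 (0.90), Tmem125 to Bcl2l1 (0.89) and the matrix metalloproteinase gene Mmp15 to Mcl1 (0.89). Pcmtd2 to Bmf (0.84), Cbr2 to Bad (0.84) and Wdr53 to Bik (0.83) completed the set.

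The rest of the apoptosis machinery was likewise not called. In 6 lists with 76 genes, 68 were tested, 29 with a positive and 39 with a negative log2 fold change (KO against WT), a median of -0.014; 0 passed the FDR and 1 had an unadjusted p below 0.05, with a background of 0.0372% and 3.10% over all genes. Of 16 other BCL-2 family genes 12 were tested, with 6 positive and 6 negative. Bcl2l14, a family member known from the gastrointestinal tract, was the most abundant of them and exceeded 8 of the 10 members in mean TPM, at 50.8 ± 5.58 TPM in KO and 50.3 ± 4.24 TPM in WT. Pmaip1, which encodes the BH3-only protein Noxa, had 24.2 ± 5.26 TPM in KO and 24.1 ± 7.14 TPM in WT, and Bbc3, which encodes Puma, 3.23 ± 1.02 TPM in KO and 3.38 ± 2.47 TPM in WT; these 3 genes were chosen after their values were seen. Bnip3 (-0.26 ± 0.19) and Bnip3l (-0.13 ± 0.09), both of mitochondrial autophagy, and Bcl2a1b (-0.68 ± 0.48), one of several near-identical copies whose reads can be split, had the smallest p of that list.

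In the list of the mitochondrial step and apoptosome, 8 of 11 genes were negative. Endog, a mitochondrial nuclease, had 10.6 to 19.7 TPM in KO and 11.2 to 29.5 TPM in WT, a log2 fold change of -0.46 ± 0.18 with an unadjusted p of 0.0296 (limma FDR 1.00); its groups overlapped. Htra2 and Diablo, both of which encode antagonists of the inhibitors of apoptosis, stood at 0.10 ± 0.13 and -0.04 ± 0.07. Of 10 caspases and substrates 7 were positive, while Casp6 had a log2 fold change of -0.19 ± 0.12 and Casp2 one of 0.16 ± 0.11. Of 8 inhibitors of apoptosis tested 5 were positive, with Naip5 at 0.13 ± 0.11, Naip1 at 0.15 ± 0.14, both of a multigene family whose reads can be split, and Xiap at -0.15 ± 0.20.

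Upstream, 6 of 8 death receptor genes were negative, with Tradd at -0.10 ± 0.10, the ligand gene Tnfsf10 at 0.29 ± 0.35 and Ripk1 at -0.06 ± 0.12. Of 19 kinase and transcription factor genes 13 were negative, with Akt2 at -0.11 ± 0.07, Rps6ka1 at -0.44 ± 0.32 and Foxo3, whose product drives BH3-only genes, at 0.23 ± 0.17. In the cage comparison 16 of the 68 genes had an unadjusted p below 0.05, a somewhat larger share than the 17.4% of all genes tested. This difference in share was not tested, and 0 of the 68 passed the FDR (smallest 0.130).

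**Figure D5:**
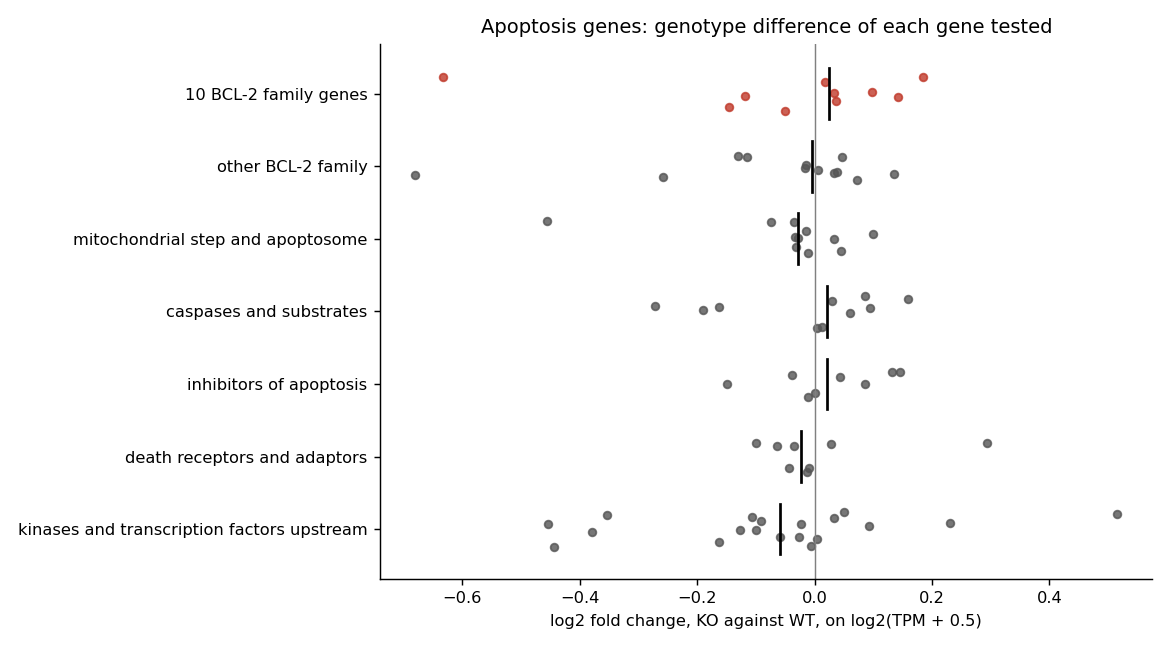
Each point is the log2 fold change (KO against WT) of 1 gene, for the 10 BCL-2 family genes in red and 6 lists of other apoptosis genes in grey, with the median of each list as a black line. The medians lie close to 0, and none of the genes passed the FDR of 0.05.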

How the data were processed

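The tools named in the submitters' processing notes are kallisto, sleuth and CASAVA, without versions, and the build is mm10. The deposited table lists APPRIS principal transcripts with TPM per mouse, and, per the file headers, the authors' p-value and q-value, a log2 ratio, a test score, variance scores and a natural log mean of estimated counts as sleuth gives them. Of 29213 rows, 405 repeated ones were dropped, and the TPM of 28808 transcripts were summed per gene.

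Genes reaching 1 TPM in 5 or more mice were tested on log2(TPM + 0.5) in limma 3.58.1 (R 4.3.3), whose trend option was on; the model held genotype and cage, and 0.5 is the pseudocount. Folds on this scale understate changes of low genes. Adjustment was by Benjamini-Hochberg over all 10756 genes tested. Correlations used log2(TPM + 0.5) and 100000 resamples (scipy 1.17.1), adjusted over 45 pairs or 100 marker relations. The fits were tested on simulated data.

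Named genes follow a rule: the members, the 3 genes with the smallest p of each list, any pathway gene past the FDR, and the gene most like each member. Values of a further gene picked this way are not reported here. The members and lists were chosen with earlier results of these data known. The labels name separate mice. Count tests were not run, since no column held counts. Annotation is from GENCODE M21. The file names 1 member transcript, of Bad, in another version than that annotation. Intervals reflect the spread between mice, and the depth per mouse is unknown.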

Additional observations from a re-analysis of the deposited data

Results flagged for a closer look

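In 4 of 56 groups of values (10 genes and 4 transcripts, each in KO, WT, cage A and cage B), 1 mouse stood apart, its gap to the nearest mouse taking an unusually large share of the group's range. Chance flags about 1 in 20 such groups. Bcl2 was high in KO-3 at 3.43 TPM, with the next KO mouse at 2.50 TPM. Bcl2l1 was high in KO-8 at 20.7 TPM, next to 17.1 TPM, and so was its upstream transcript ENSMUST00000007803 at 19.0 TPM, next to 15.9 TPM. Bak1 was highest in KO-8 among the mice of cage A at 18.9 TPM, next to 16.6 TPM.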

How the results depend on the processing

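The labels give no pairs of KO and WT mice, so no paired test was run. The main fit compared the genotypes with cage as a term. The members called stayed at 0 in the genotype, cage and interaction tests, and the pathway genes called at 0, under each alternative that could be fitted for them: median-of-ratios and nuclear scaling, pseudocounts of 0.1 and 1, no filter, a filter of 5 TPM, no trend, the most abundant transcript, no cage term, cage A alone, cages B and C, the F test on cage and each mouse left out. A filter of 5 TPM left 7 members. Count tests were not run. Over all genes, 4 were called, 5 with no cage term, 2 with no filter, 0 in cage A alone and 2 to 4 with a mouse left out. Signs of small differences turned: in cages B and C, Bcl2l2 was at 0.00697, Bax at -0.0796 and Bad at -0.17; in cage A alone, Bik was at -0.0882 and Bmf at -0.0214. With a mouse left out, log2 fold changes ranged from -0.0270 to 0.24 for Bcl2, -0.29 to 0.00263 for Mcl1, -0.0160 to 0.11 for Bax, -0.0483 to 0.22 for Bak1, -0.0728 to 0.12 for Bad, -0.0205 to 0.34 for Bik and -0.15 to 0.14 for Bmf; the cause was not tested. Bid and Bcl2l1 kept a negative sign in each alternative. The r of Bcl2 with epithelial markers was -0.87 with median-of-ratios scaling, -0.85 with nuclear scaling, -0.86 with the mean log2 of the markers and -0.81 without the 3 most abundant markers, none past the threshold (adjusted p 0.0640, 0.154, 0.0990 and 0.275); with a mouse left out it ranged from -0.93 to -0.86. Pairs of members past the threshold stayed at 0.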
